A study of Mus musculus with 42 samples.

Results

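Cell cycle genes were followed in the reproductive tract of mice that lacked Hoxa or Hoxd genes of the posterior clusters. The set held 38 gene symbols, from replication licensing factors to spindle proteins, and a gene was counted as measured when at least 1 probe set carried its symbol and no other. Of the 38 symbols, 36 were measured, by 39 probe sets, among 19938 genes in all. The mitotic cyclin Ccnb1 had no such probe set, and the CDK inhibitor Cdkn1a was carried only by a probe set that it shared with another symbol, so neither is described. Each value is a log value, taken here as log2, relative to the median of the 21 arrays of its sex, which is 0 for every probe set. Levels of different genes, and of female and male tissues, therefore cannot be set against each other, and every number below is a value on that scale or a difference between group means.

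The study hybridised total RNA of adult mice of 3 to 7 months, on a mixed CD1/129 background, to 42 whole-transcript arrays, in 14 groups of 3 that the labels call biological replicates. The genotypes were WT, AKO (Hoxa9,10,11-/-), DKO (Hoxd9,10,11-/-), AKDH (Hoxa9,10,11-/- with Hoxd9,10,11+/-) and AHDK (Hoxa9,10,11+/- with Hoxd9,10,11-/-). Uterus, taken in diestrus, and vas deferens were measured in all 5 genotypes, and oviduct and caudal epididymis in WT and AKO. The labels name no tissue-specific driver, so the loss is not limited to 1 cell type or to the adult. The arrays hold whole tissue, in which fewer cells of a type and less RNA per cell cannot be told apart.

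Cells divide by an ordered set of kinase switches. In G1, D-type cyclins (Ccnd1) and then E-type cyclins (Ccne1, Ccne2) drive CDKs that release the E2F factors from the retinoblastoma proteins, and Cdkn1b (p27) restrains those CDKs. Origins of replication are licensed by the ring of Mcm2, Mcm3, Mcm4, Mcm5, Mcm6 and Mcm7, while Pcna clamps the polymerase to DNA and Rrm2 supplies deoxynucleotides. Mitosis follows when Cdk1 with cyclins A and B (Ccna2, Ccnb2) is switched on by Cdc25c, and the mitotic genes are transcribed late, in G2 and M. In the adult uterus, oestrogen drives waves of epithelial division over the cycle, whereas the male ducts and the ciliated oviduct turn over slowly.

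These genes are classically controlled through short promoter motifs, so the promoter sequences were read from RefSeq (GRCm38.p6), from 250 bases before to 50 bases after each start, for the 30 of 38 symbols that the table held. The motifs searched on both strands were the CHR, spelled TTTGAA, the CCAAT box, spelled CCAAT, and an E2F motif, spelled TTTCCCGC, TTTCGCGC, TTTGCCGC or TTTGGCGC. A promoter counted once for a motif however many copies or start sites it had, and no motif was required to be clear of another. The CHR letters stood in 12 of 18 promoters of mitotic members (66.7%) and in 1 of 7 of replication members (14.3%), against 20.2% of 27025 genes. The E2F letters stood in 4 of 7 promoters of replication members (57.1%) and 1 of 18 of mitotic members (5.56%), against 2.6% of all genes. CCAAT stood in 7 of 7 and 14 of 18 (77.8%), against 41.1%. Such a match describes letters and is no sign of a bound factor.

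Shown are 3 mitotic and 3 replication promoters, of genes called in at least 1 comparison below, each from 100 bases before to 30 bases after the start, with the motif letters in capitals on either strand (ATTGG is CCAAT read on the other strand). Each window shown holds CHR or E2F letters, which not every called member has. In the promoters of Bub1 and Rrm2, also called below, only CCAAT letters were found. The Ccnb2 window is chr9:70421525-70421654, of Ect2 chr3:27153825-27153954 (the second of its 2 listed starts), of Cdk1 chr10:69352883-69353012, of Mcm3 chr1:20820283-20820412, of Mcm6 chr1:128359676-128359805 and of Mcm7 chr5:138171854-138171983 (the first of 2 listed starts), all on the minus strand.
Ccnb2: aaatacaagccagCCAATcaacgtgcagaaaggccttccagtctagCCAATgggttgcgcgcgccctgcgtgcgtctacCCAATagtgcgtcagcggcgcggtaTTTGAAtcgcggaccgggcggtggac
Ect2: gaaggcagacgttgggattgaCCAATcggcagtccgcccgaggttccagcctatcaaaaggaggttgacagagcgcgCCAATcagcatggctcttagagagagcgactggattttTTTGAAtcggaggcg
Cdk1: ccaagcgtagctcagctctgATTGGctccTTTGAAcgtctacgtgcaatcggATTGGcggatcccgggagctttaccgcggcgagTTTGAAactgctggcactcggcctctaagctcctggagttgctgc
Mcm3: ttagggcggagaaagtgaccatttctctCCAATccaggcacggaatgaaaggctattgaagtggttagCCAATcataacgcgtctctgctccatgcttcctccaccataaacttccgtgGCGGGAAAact
Mcm6: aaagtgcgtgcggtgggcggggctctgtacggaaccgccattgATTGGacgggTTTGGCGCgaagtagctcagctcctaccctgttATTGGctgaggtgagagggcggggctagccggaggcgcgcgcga
Mcm7: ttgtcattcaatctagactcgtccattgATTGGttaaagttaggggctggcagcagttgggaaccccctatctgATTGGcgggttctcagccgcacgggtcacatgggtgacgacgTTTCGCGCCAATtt
In Ccnb2 and Ect2 the CHR lies just after the start, at +5 and +16, with CCAAT boxes at -21 and -23. Cdk1 has CHR letters at -71 and -15, each downstream of CCAAT letters on the other strand. The 3 Mcm windows hold no CHR, and their E2F letters begin at +20, -47 and +17. In Mcm7 the E2F letters and a CCAAT box share 1 base. Counted from the first start of Ect2 its CHR letters lie at -114 and +40, and from the second start of Mcm7 no E2F letters were found. Outside the window shown, Cdk1 also has E2F letters at -131.

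The targeted genes were read first, as a check of the labels. Hoxa11 was lower in AKO than in WT vas deferens (-1.51, SE 0.31, limma adjusted p = 0.00961) and in AKDH than in WT of uterus (-2.78, adjusted p = 0.0161) and vas deferens (-1.66, adjusted p = 0.0027). In AKO uterus it was -1.59, 0.67 and -0.59 against 2.75, 1.23 and 2.19 in WT (adjusted p = 0.112). In AKO epididymis Hoxa11 (-0.99, limma adjusted p = 0.107) and Hoxa10 (-0.62, adjusted p = 0.256) lay wholly below WT without being called, and in AKO oviduct Hoxa11 overlapped WT (-0.56, adjusted p = 0.993). Hoxa9 was not called lower in any AKO tissue, and in AKO vas deferens it lay wholly above WT (0.35, adjusted p = 0.309). Hoxd9 was lower in DKO (-0.55, limma adjusted p = 0.00581) and AHDK vas deferens (-0.49, adjusted p = 0.00885). In uterus it differed from WT by -0.12 in DKO and -0.01 in AHDK, so it gives no check of the Hoxd deletion there. Hoxd11 lay wholly below WT in AHDK uterus without being called (-0.84, limma adjusted p = 0.183), and differed by -0.17 in DKO uterus. Hoxd10 was not lower in DKO (0.18) or AHDK (0.13) uterus. Hoxd10 was not lower in DKO (0.16) or AHDK (0.33) vas deferens either. In AKO vas deferens, whose label names no Hoxd loss, Hoxd9 was called higher than in WT (0.45, limma adjusted p = 0.0053). The check of the labels is therefore incomplete. No targeted gene was called against WT in AKO, DKO or AHDK uterus, or in AKO oviduct or epididymis. Motile cilia markers averaged 3.80 to 4.41 in oviduct and -0.19 to 0.07 in uterus, and 13 of 14 sperm markers were called higher in WT epididymis than in WT vas deferens.

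Libraries that stood apart touch several results. Replicate 2 of WT oviduct had Xist at -5.92 against 0 and -0.40 in the other WT oviducts, and the Y-linked Eif2s3y at 2.09. Both go against its female label, whereas its ovarian markers averaged 1.02. Whether this library was mislabelled or mixed cannot be told. Replicate 3 of AKDH vas deferens had sperm markers at 1.28 and spermatocyte and spermatogonial markers at 0.99, against at most 0.90 and 0.22 in the other vas deferens arrays. Replicate 1 of AKO epididymis had genes of the proximal epididymis, a list drawn up after seeing the data, at 5.19 against 0.89 and 0.99 in its group.

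In uterus the members were high or low together from array to array within each genotype, by more than the group means of the mutants differed from that of WT (within-genotype SD of the member mean 0.66, largest difference 0.46). WT arrays had means over the 36 members of -0.50, 0.56 and 0.37. The 3 AKO arrays read 1.15, -0.50 and 0.07, the DKO ones 0.82, 0.80 and 0.17, the AKDH ones 0.27, 0.33 and -0.87, and the AHDK ones 0.69, -0.41 and 1.06. Every mutant group overlapped WT. In AKO, 36 of 36 members were highest in replicate 1 and 35 were lowest in replicate 2, with a median gap of 1.70 between these arrays. In AHDK 34 members were highest in replicate 3 and 35 lowest in replicate 2, and in WT 35 were lowest in replicate 1. Differences between genotypes took up 16.2% of the variance of the member mean in uterus.

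**Figure D1:**
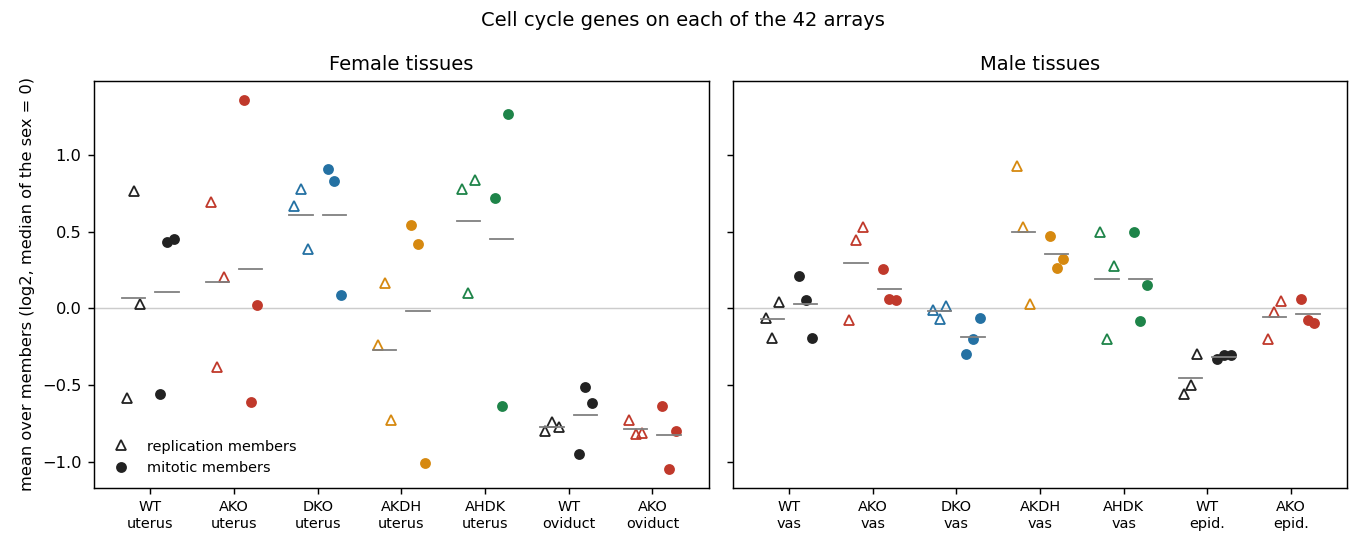
Mean of the 8 replication members (open triangles) and the 22 mitotic members (filled circles) on each array, as log2 values with the median of the sex at 0; grey bars are means of 3 arrays. Uterus arrays of 1 genotype spread from -1.01 to 0.54 (AKDH, mitotic) or from -0.61 to 1.36 (AKO, mitotic), while the 6 oviduct arrays lie at -0.52 or lower and the 3 WT epididymis arrays lie below the 3 AKO ones.

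Mki67, the Ki-67 proliferation antigen, shows the size of this swing. WT uteri had values of -0.19, 0.88 and 1.08. AKO uteri had 2.00, -0.36 and 0, DKO 1.47, 1.36 and 0.26, AKDH 0.81, 0.91 and -1.45, and AHDK 0.89, -0.87 and 1.45. Each of the 4 mutant genotypes had arrays on both sides of the WT mean of 0.59. Ccnb2, the B-type cyclin of mitosis, ran from -1.83 (AKDH) to 1.35 (AKO), and Cenpe, the kinetochore motor, from -0.72 (AKDH) to 2.09 (AKO). Mcm7 was the least variable of the ring, at -0.11, 0.78 and 0 in WT and 1.10, 0.50 and 1.12 in AHDK.

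The SD between arrays of 1 genotype had a median of 0.719 over the members in uterus, against 0.144 over all genes, and 98.5% of genes had a smaller one. In vas deferens these medians were 0.257 and 0.114, in oviduct 0.171 and 0.116, and in epididymis 0.121 and 0.119. The excess spread was thus largest in uterus and nearly absent in epididymis. As a description over 15 uterus arrays, which share 5 group means, the median correlation between pairs of members after removing those means was 0.891, and it was 0.435 in vas deferens. The members that moved least with the others in uterus were Cdkn1b and Ccnd1, with within-genotype SDs of 0.194 and 0.291.

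**Figure D2:**
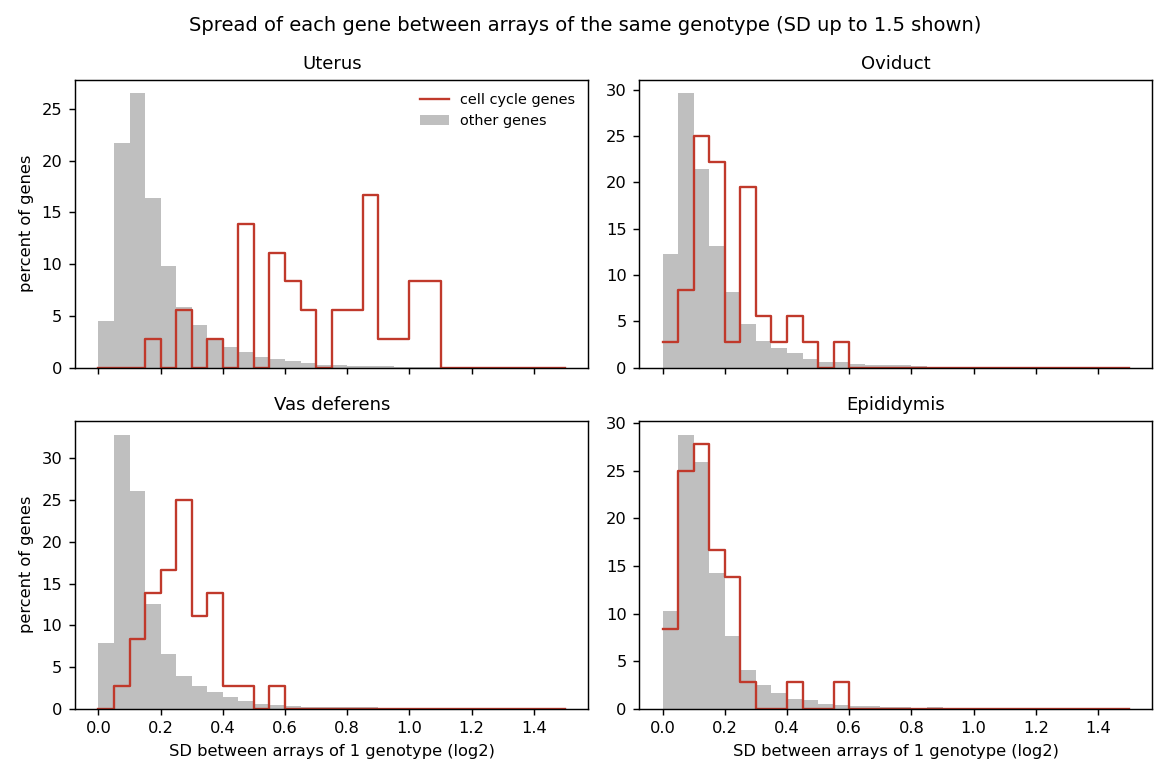
SD between arrays of the same genotype (horizontal, log2) for the cell cycle genes (red outline) and all other genes (grey bars), as percent of genes (vertical), by tissue. In uterus the members centre on 0.719 against 0.144 for all genes, whereas in epididymis both overlap, with medians of 0.121 and 0.119.

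Uterus arrays also differed in the balance of replication and mitotic genes, each gene taken relative to its own median. The spread of the 2 classes was unequal. Within-genotype SDs in uterus were 1.06 for Ccnb2 and 1.05 for Bub1, though 0.464 for Birc5, against 0.389 for Mcm7 and 0.687 for Rrm2. The part of this unequal spread in the balance was not tested. The mean of the 8 replication members less the mean of the 22 mitotic members was -0.78 in AKDH replicate 1 and -0.67 in AKO replicate 1, but 0.73 in AHDK replicate 2 and 0.34 in WT replicate 2. In AKDH replicate 1, 22 of 22 mitotic members lay above the median of the replication members, as with Ccnb2 at 0.83 and Aurkb at 0.70 beside Mcm3 at -0.40 and Mcm5 at -0.46. In AHDK replicate 2, 0 of 22 did so, with Ccnb2 at -1.31 and Plk1 at -0.98 beside Mcm7 at 0.50. The sign of this balance differed between arrays of the same genotype in WT, AKO, DKO, AKDH and AHDK alike.

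Genes of the uterine oestrogen response, a list of 13 measured genes such as Ltf, C3, Muc1 and Pgr, were low on some of the same arrays. WT means of this list were -1.09, 0.58 and -0.25. The AKO means were 0.34, -0.06 and 0.20, those of DKO 0.48, 0.49 and -0.41, of AKDH 0.02, -0.01 and -0.90, and of AHDK 0.69, 0.51 and 0.71. The lowest array of both lists was the same one in each of the 5 genotypes, though in AHDK the oestrogen list spanned only 0.51 to 0.71. All females were labelled as collected in diestrus, and the part of the cycle stage in this spread was not tested.

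Beyond the members, genes of the same pathway moved on the same uterus arrays. Replicates 1, 2 and 3 of AKO had 0.92, -0.41 and 0.06 over 48 other mitotic genes, and 0.60, -0.34 and 0.18 over 29 other replication genes, which include Cdc6, Orc1 and the GINS subunits. Over 20 other G1/S regulators they had 0.35, -0.14 and 0.07, a smaller swing in the same order. Over 15 other CDK inhibitors and arrest genes the 3 AKO arrays all read 0.02.

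**Figure D3:**
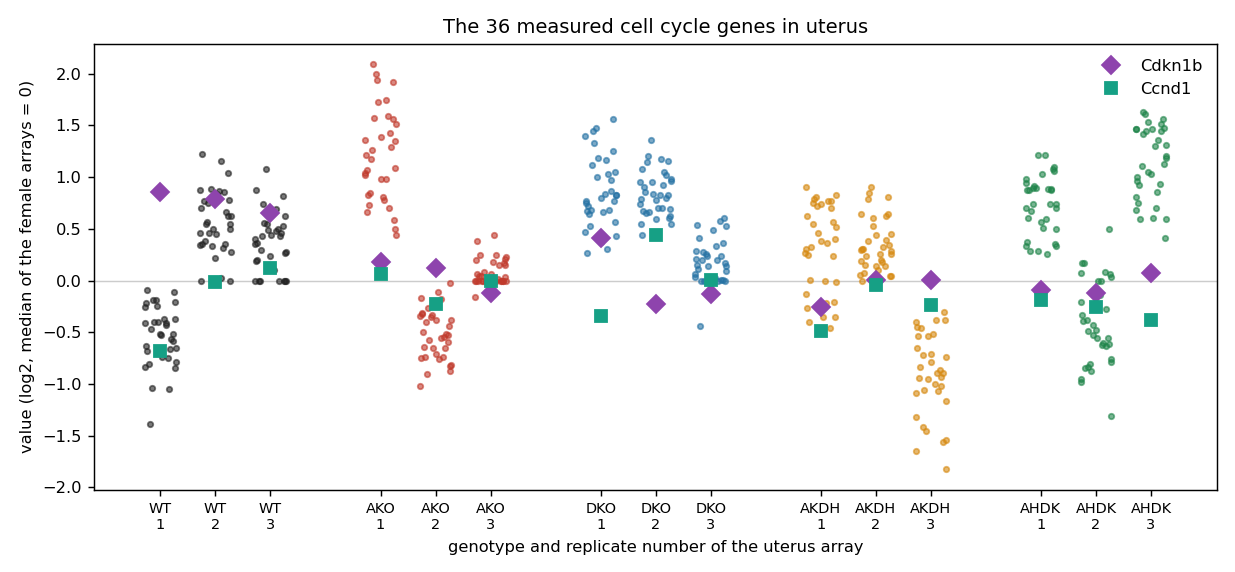
Values of the 36 measured members (points, log2, median of the female arrays at 0) on each of the 15 uterus arrays, by genotype and replicate number; Cdkn1b and Ccnd1 are drawn as larger symbols. Points of an array move as a block, from -0.87 on average in AKDH replicate 3 to 1.15 in AKO replicate 1, while Cdkn1b reads 0.66 to 0.86 in WT and at most 0.41 elsewhere.

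Against this spread, 1 member was called in uterus, the CDK inhibitor Cdkn1b, and only downwards. WT arrays read 0.86, 0.79 and 0.66 for Cdkn1b, and the AKO arrays 0.18, 0.12 and -0.12. DKO arrays read 0.41, -0.23 and -0.13, the AKDH ones -0.26, 0.01 and 0, and the AHDK ones -0.09, -0.12 and 0.07. The 3 WT arrays lay above all 12 mutant arrays. It fell by 0.75 in DKO (SE 0.15, limma adjusted p = 0.0404), by 0.85 in AKDH (adjusted p = 0.0092) and by 0.81 in AHDK (adjusted p = 0.0174). The AKO difference was -0.71 (95% interval -1.03 to -0.38) and missed the threshold (adjusted p = 0.101). The 4 comparisons share their WT arrays. The DKO call was lost without any single WT array or without replicate 2 or 3 of DKO, and the AHDK call without replicate 1 of WT or of AHDK (0 of 36 members called by limma, 1 to 8 at an unadjusted p below 0.05). The AKDH call held without each array in turn, but not with WT and AKDH alone in the fit (0 called by limma, 1 at an unadjusted p below 0.05). It was also lost without 3 uterus arrays far from their group (0 called, 3 at that p). These arrays, replicate 1 of WT, replicate 1 of AKO and replicate 3 of AKDH, were picked after seeing the data.

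The fall of Cdkn1b came from 1 of its 2 probe sets. Probe set 10542317 read 1.45, 1.35 and 1.34 in WT uterus and between -0.34 and 0.59 in the 12 mutant arrays. Probe set 10542310 read 0.26, 0.23 and -0.02 in WT and -0.23 to 0.23 in the mutants, with differences of -0.26 to -0.18 and limma adjusted p-values of 0.295 to 0.549. The probe sets therefore disagreed in WT uterus, whereas in WT epididymis both were low, at -0.53 (10542317) and -0.57 (10542310) on average. The other one moved in AKDH vas deferens, where 10542310 fell by 0.51 (limma adjusted p = 0.00425, over probe sets) and 10542317 differed by -0.27 (adjusted p = 0.336). With each probe set fitted on its own, 10542317 gave -1.15 in AKO (adjusted p = 0.0487) and -1.33 to -1.50 in the other genotypes (adjusted p = 0.00278 to 0.0202).

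Small RNA genes moved with Cdkn1b. The mean of 363 of them was 0.28, 0.20 and 0.23 in WT uterus and -0.07 to 0.18 in the mutants. Of these genes, 18 were called lower in DKO, 66 in AKDH and 38 in AHDK, against 70, 528 and 246 of all 19938 genes. With that mean as a covariate, 0 members were called by limma in DKO, AKDH or AHDK uterus, and 1, 2 and 1 had an unadjusted p below 0.05. That mean was itself higher in every WT than in every mutant uterus array, so this fit cannot separate the small RNAs from genotype. Their part in the Cdkn1b result was not tested.

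**Figure D4:**
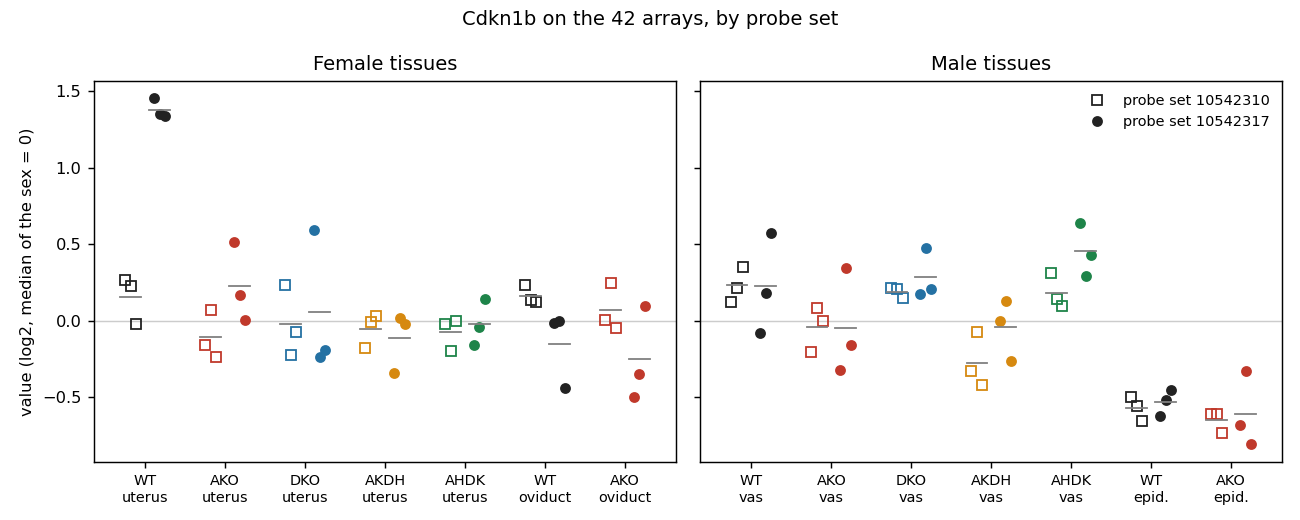
Cdkn1b by probe set (open squares 10542310, filled circles 10542317) on each array, as log2 values with the median of the sex at 0; grey bars are means of 3 arrays. The 3 WT uterus arrays stand at 1.34 to 1.45 on the second probe set and at -0.02 to 0.26 on the first, and no other group separates the probe sets as far.

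The other 35 members did not pass the test in any uterus comparison. Counts of their directions are given below, but the members moved together on each array (median correlation 0.891), so these are not independent observations. Differences between genotypes took up a median of 13.9% of a member's variance in uterus, against 40.0% over all genes. In DKO 35 of 36 members were higher than WT, with a median difference of 0.45 (0.02 over all genes), and 1 was called, against 0.973% of all genes. The largest evidence after Cdkn1b was for Mcm2 (0.70, SE 0.34, limma adjusted p = 0.362), Mcm5 (0.83, adjusted p = 0.411) and Pcna (0.40, adjusted p = 0.427). Wholly below WT lay 1 of 36 members, against 9.27% of genes. The mean over members exceeded WT by 0.46 (SE 0.39), and by 0.14 without replicate 1 of WT.

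In AHDK 32 members were higher and 4 lower, with a median of 0.36 and 1 called, against 3.53% of genes. Mcm7 differed by 0.68 (adjusted p = 0.204), Mcm3 by 0.67 (adjusted p = 0.383) and Mcm5 by 0.65 (limma adjusted p = 0.431). In AKDH 30 were lower and 6 higher, with a median of -0.17 and 1 called, against 6.58% of genes. Ccne1 differed by -0.61, Pcna by -0.29 and Ccne2 by -0.61 (limma adjusted p = 0.468 to 0.513). The mean over members turned to 0.16 in AKDH without its replicate 3, and to -0.02 in AHDK without replicate 1 of WT.

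In AKO 28 members were higher and 8 lower, with a median of 0.14, and 0 were called by limma (1 at an unadjusted p below 0.05), against 0.0903% of genes. Mad2l1, a spindle checkpoint protein, differed by 0.45 (95% interval -0.77 to 1.67), Pcna by 0.17 and Mcm4 by 0.23, with adjusted p-values of 0.907 to 0.931. The mean over members was 0.10 above WT, and 0.35 below it without AKO replicate 1. For mitotic genes the intervals were wide, as for Plk1 (-0.16, 95% interval -1.79 to 1.47) and Mki67 (-0.04, -1.79 to 1.70), so changes inside them were not detectable.

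Comparisons between mutant uteri called no member. The counts were 0 of 36 for DKO against AKO (0.186% of genes), AKDH against AKO (0% of genes) and AHDK against DKO (0.0251% of genes), by limma, and 0 at an unadjusted p below 0.05 in each. Median differences were 0.36, -0.31 and -0.17. Of the pathway lists, with 20, 29, 48 and 15 genes measured, 4 genes were called in uterus, against 6.58% of all genes in AKDH and 3.53% in AHDK. Ccnd2, a D-type cyclin, was higher in AKDH (1.65, SE 0.30, limma adjusted p = 0.00953), as was the CDK inhibitor Cdkn2c (0.57, adjusted p = 0.0245). The inhibitors Cdkn1c (0.65, adjusted p = 0.0357) and Cdkn2b (0.66, adjusted p = 0.0409) were higher in AHDK.

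In oviduct the members did not differ detectably between AKO and WT, and their values lay low in both. The member mean was -0.86, -0.55 and -0.62 in WT and -0.62, -0.93 and -0.76 in AKO, with overlap. By limma 0 members were called, against 0% of all genes, and 0 members had an unadjusted p below 0.05, as had 609 genes of all. Mad2l1 differed by 0.33 (95% interval -0.10 to 0.77), Mcm7 by -0.16 (-0.38 to 0.07), Plk1 by -0.42 (-1.04 to 0.19), Bub1 by -0.43 (-1.11 to 0.25) and Cdkn1b by -0.10 (-0.36 to 0.16), all at an adjusted p of 0.993. Without WT replicate 2, again 0 members (2 at an unadjusted p below 0.05) and 0% of genes were called by limma.

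Called lower in WT oviduct than in WT uterus were 5 members, Cdkn1b, Top2a and 3 of the 6 Mcm genes. Mcm3 was -1.38, -1.04 and -1.44 in oviduct and -0.80, 0.77 and 0 in uterus, lower by 1.28 on average (first minus second -1.28, SE 0.37, limma adjusted p = 0.0198). Oviduct lay wholly below uterus although the uterus arrays spread widely. Mcm6 fell by 1.20 (adjusted p = 0.0268), Mcm5 by 1.18 (adjusted p = 0.0404), Top2a, the topoisomerase of mitotic chromosomes, by 0.97 (adjusted p = 0.0397) and Cdkn1b by 0.76 (limma adjusted p = 0.000916). Cdkn1b again rested on probe set 10542317, at -1.53 against 0.01 on the other.

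Ccnd1 went the other way. It was 0.46, 0.15 and 0.60 in WT oviduct and -0.68, -0.01 and 0.12 in WT uterus, a rise of 0.60 (SE 0.20, limma adjusted p = 0.0417). In all 6 members were called, against 23.9% of genes, and 5 of them lower, against 9.39%. Wholly below uterus lay 19 of 36 members, against 20.5% of genes, and 35 of 36 had a lower mean. The largest ranges of group means in females, with AKO oviduct lowest and DKO uterus highest, were those of Ccna2 (2.49), Mki67 (2.47), Bub1 (2.38) and Plk1 (2.11). Without replicate 2 of WT oviduct 3 members were called (Cdkn1b, Mcm3 and Ccnd1), without replicate 1 or 3 of WT oviduct 1, without replicates 1, 2 and 3 of WT uterus in turn 11, 2 and 3. With quantile normalisation 1 was called.

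The AKO effect did not differ detectably between oviduct and uterus. An interaction test in limma called 0 of 36 members, against 0% of genes, and 1 member had an unadjusted p below 0.05. That member was Cdkn1b, with a difference of effects of 0.61 (95% interval 0.19 to 1.04, adjusted p = 0.881), and of 0.64 (adjusted p = 0.849) without replicate 2 of WT oviduct. In the pathway lists the replication factors Orc1 (-0.75), Cdc6 (-1.07) and Gins3 (-0.47) were called lower in WT oviduct than in WT uterus. So were the G1/S genes Cdk2 (-0.72), E2f8 (-1.88), Myc (-1.53) and E2f3 (-0.74) and the regulators of mitotic entry Cdc25b (-0.60) and Wee1 (-0.73). Called lower were 3 of 29 other replication genes (10.3%), 3 of 48 other mitotic genes (6.25%) and 5 of 20 G1/S regulators (25%), against 9.39% of all genes. Another 3 G1/S regulators were called higher, and 0 of the replication and mitotic genes. From the list of CDK inhibitors and arrest genes Tob1 (0.88), Cdkn2b (1.41) and Mdm2 (0.67) were called higher and Btg2 (-0.46) lower. Mdm2, a p53 inhibitor, is not itself an arrest gene. Without replicate 2 of WT oviduct Gins3 was no longer called, and the others named here were.

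In AKDH vas deferens 3 genes of the Mcm ring rose. Mcm7 was 1.26, 0.80 and 0.86 in AKDH and -0.15, -0.19 and -0.09 in WT, a rise of 1.11 (SE 0.19, limma adjusted p = 0.00178). Mcm3 was 1.26, 0.89 and 0.21 against -0.10, -0.29 and -0.19, a rise of 0.98 (adjusted p = 0.0238). Mcm6 was 1.52, 0.91 and 0.03 against -0.34, -0.66 and 0, a rise of 1.15 (adjusted p = 0.0377). In each of the 3 genes the AKDH arrays lay wholly above WT, but replicate 3 of AKDH barely did for Mcm6.

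The mitotic kinase Bub1 of the spindle checkpoint rose by 1.01 (SE 0.24, limma adjusted p = 0.00988), and the Cdk1-activating phosphatase Cdc25c by 0.31 (adjusted p = 0.0242). That made 5 members called, all higher, against 24.3% of genes called and 9.57% called higher. Wholly above WT lay 16 of 36 members, against 13.8% of genes. The mean over members was 0.57, 0.33 and 0.17 in AKDH and 0.13, -0.01 and -0.10 in WT, a difference of 0.35 (SE 0.13), or 0.44 without replicate 3 of AKDH, and 33 of 36 members were higher. Rrm2 was an exception, at 0.06, 0.03 and -0.71 against 0.07, 0 and 0.54. Cdkn1b differed by -0.39 (95% interval -0.69 to -0.08, adjusted p = 0.0643).

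The 3 AKDH arrays were not alike. In replicates 1 and 2 the replication members averaged 0.93 and 0.53 and the mitotic ones 0.47 and 0.26, whereas in replicate 3 they averaged 0.03 and 0.32. The high mitotic members of replicate 3 were Ccnb2 (1.43, against 0.03 and 0.08 in replicates 1 and 2), Plk1 (1.32, against 0.28 and 0.33) and Bub1 (1.23, against 1.04 and 0.42). Others were low there, such as Ccna2 at -0.34 against 1.29 and 0.56, and Mki67 at -0.35 against 0.77 and 0.44. The same array carried the spermatocyte and spermatogonial markers at 0.99, and their part in these values was not tested.

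Without replicate 3, 9 members were called in AKDH, all higher, with 23.6% of genes called. They were Mcm2 (0.85), Mcm3 (1.27), Mcm4 (0.63), Mcm5 (0.84), Mcm6 (1.55) and Mcm7 (1.17), the whole ring, with Bub1 (0.84), Top2a (0.52) and Ccne2 (0.50). The count was 2 without replicate 2 of WT and without replicate 1 of AKDH. Tissue makeup moved as well in AKDH. Of 10 adipocyte markers 9 were called higher (list mean 1.20 to 1.48 against -1.13 to 0.04), and of 10 smooth muscle markers 8 were called lower (-0.45 to -0.06 against 0.28 to 0.76). Their part in the members' values was not tested.

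**Figure D5:**
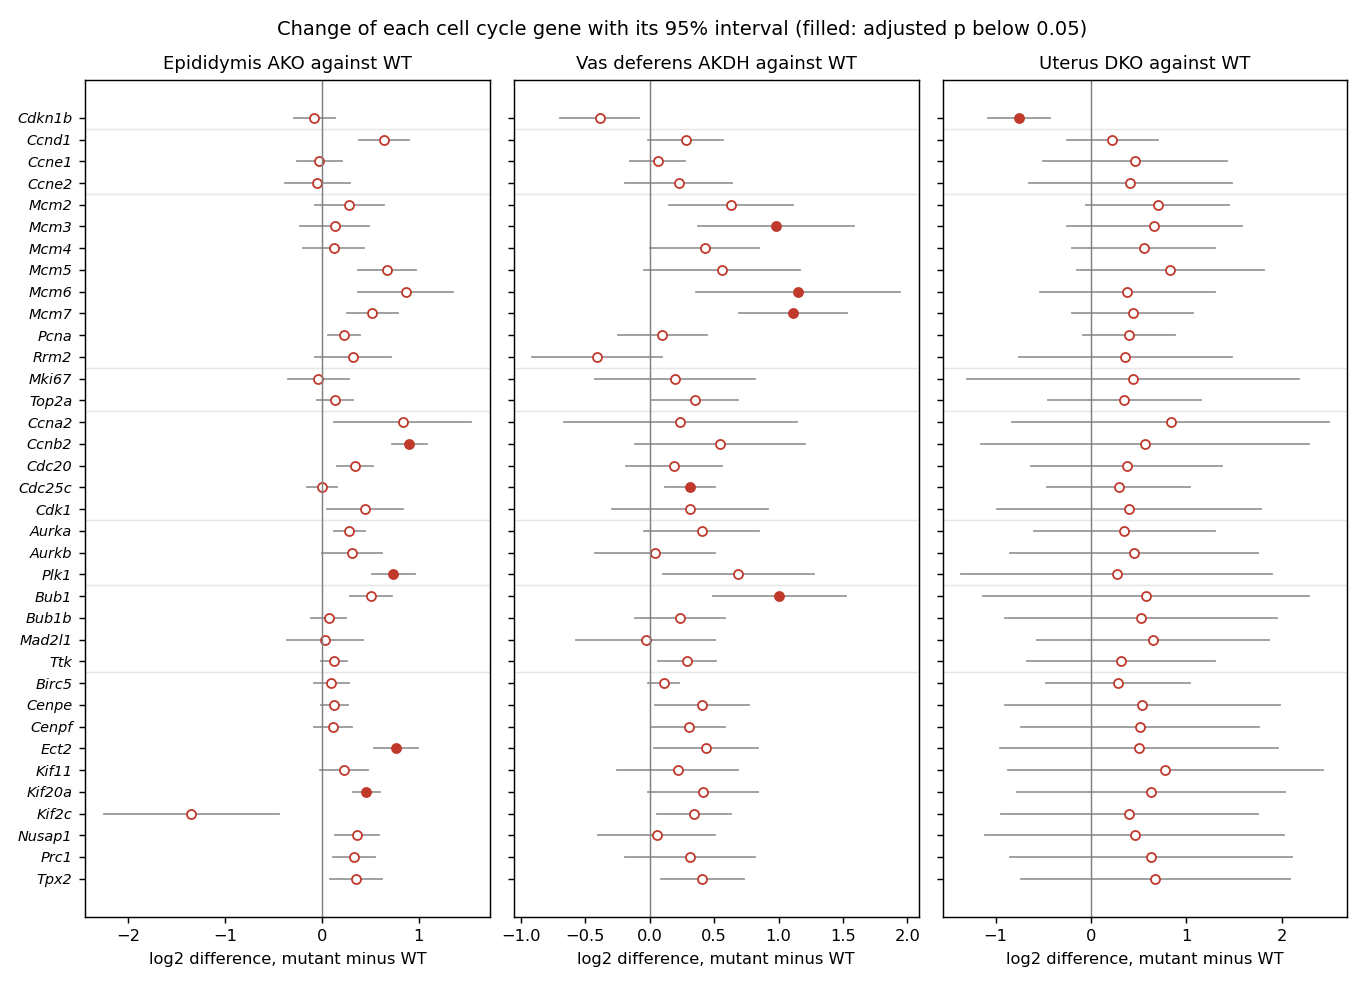
Difference of each measured member between mutant and WT (points, log2) with its 95% interval (lines) in epididymis AKO, vas deferens AKDH and uterus DKO; filled points are called at an adjusted p below 0.05, and rows are grouped by role. Epididymis has 4 filled points, all mitotic genes, vas deferens 5, of which 3 are Mcm genes, and uterus 1, Cdkn1b, beside intervals that are far wider for the other genes.

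Pathway genes were called in both directions in AKDH vas deferens, at shares of 20% to 25% of each list, near the 24.3% of all genes. Of 29 other replication genes 6 were called higher and 1 lower, among them Chaf1a (0.52), Rfc4 (0.55), Dtl (1.22) and, lower, Gins4 (-0.23). Of 48 other mitotic genes 8 were called higher and 3 lower, with Kif18a at 0.38, Incenp at 0.41, Bub3 at -0.31 and Spc25 at -1.09. Of 20 other G1/S regulators 3 rose and 2 fell, with Rbl1 at 0.54, E2f2 at 0.28, Ccnd3 at -0.37 and Cks1b at -0.59. Of 15 arrest genes 3 rose (Btg1 0.74, Tob1 0.71 and Ccng2 0.52). Without replicate 3 of AKDH, a count added after seeing the data, 17 of the 29 replication genes were called (58.6%, 16 of them higher), 14 of the 48 mitotic genes, 6 of the 20 G1/S regulators and 4 of the 15 arrest genes, against 23.6% of all genes.

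In AKO vas deferens the Mcm genes leaned the same way without passing the test. Mcm7 was 0.05, 0.59 and 0.81 in AKO, wholly above WT, with a difference of 0.62 (SE 0.19, limma adjusted p = 0.065). Mcm2 differed by 0.56 (adjusted p = 0.144), Rrm2 by -0.58 (adjusted p = 0.146), Birc5 by 0.14 (adjusted p = 0.147) and Cdkn1b by -0.27 (adjusted p = 0.279). By limma 0 members were called and 6 had an unadjusted p below 0.05, against 9.35% of genes called. Wholly above WT lay 7 members, against 14.2% of genes. Replicate 1 of AKO stayed near WT for the ring (Mcm3 at 0, against 0.57 and 0.78), and without it 1 member was called.

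The member mean was nevertheless tight in AKO, at 0.15, 0.16 and 0.17, since replicate 1 was higher for mitotic genes such as Ccna2 (0.97, against 0.55 and 0.18) and lower for replication genes. Adipocyte markers were higher here too (8 of 10 called), and smooth muscle markers lower (2 of 10 called). Of the pathway genes Myc rose by 0.74 (limma adjusted p = 0.00793), Incenp by 0.32, Btg1 by 0.50, Tob1 by 0.60 and Ccng2 by 0.48, and Spc25 fell by 1.06 (adjusted p = 0.0157). Spc25, a subunit of the kinetochore's Ndc80 complex, was thus called lower in AKO and AKDH, which share their WT arrays.

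In DKO vas deferens members lay slightly below WT. The mean was -0.19, -0.15 and -0.04, and 27 of 36 members were lower, with 20 of the 22 mitotic ones among them. By limma 0 were called, and 3 had an unadjusted p below 0.05, against 5.87% of genes called. Wholly below WT lay 4 members, against 11.1% of genes. Ccne1 differed by -0.33 (adjusted p = 0.0753), Birc5 by -0.15 (adjusted p = 0.151), Nusap1 by -0.49 (adjusted p = 0.207), Ect2 by -0.37 (adjusted p = 0.29) and Cdkn1b by 0.01 (adjusted p = 0.985). Called in the pathway lists were Cks1b (-0.62), Ccnd3 (-0.30), Gins4 (-0.43), Mad1l1 (0.31) and Btg1 (0.42).

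In AHDK vas deferens 31 members were higher than WT, with 0 called by limma and 3 at an unadjusted p below 0.05, against 4.15% of genes called. Cdc25c differed by 0.27 (adjusted p = 0.116), Mcm7 by 0.49 (adjusted p = 0.204), Kif2c by 0.30 (adjusted p = 0.268), Birc5 by 0.12 (adjusted p = 0.29) and Cdkn1b by 0.09 (adjusted p = 0.843). The 3 arrays spread, as in uterus, with member means of 0.47, -0.09 and 0.18. Of 36 members 33 were highest in replicate 1 and 35 lowest in replicate 2, and without replicate 2 of AHDK 2 members were called (1 in AHDK against DKO). Btg1 was the pathway gene that rose (0.55), and Bub3 the one that fell (-0.24). Adipocyte markers were higher in AHDK too, such as Adipoq (2.33, limma adjusted p = 0.0136) and Plin1 (2.21, adjusted p = 0.00677). All those measured were called except Plin4 (0.53, adjusted p = 0.277). Their part in the members' values was not tested.

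Between the mutants, DKO lay below AKO in vas deferens. Called lower were Birc5 (survivin), at -0.26, -0.19 and -0.22 in DKO and 0.02, 0.04 and 0.15 in AKO (-0.29, SE 0.06, limma adjusted p = 0.00445), Ccne1 (-0.39, adjusted p = 0.0168) and Ect2, the cytokinesis exchange factor (-0.68, adjusted p = 0.0245). DKO lay wholly below AKO in each. Without replicate 3 of AKO or replicate 1 of DKO, 1 member was called. The 3 calls compare with 17.8% of genes called and 6.37% called lower, and 15 of 36 members lay wholly below AKO, against 15.7% of genes. Mcm7 differed by -0.55 (adjusted p = 0.0685). Of the pathway genes Myc (-0.89), Cdc25a (-0.43) and Cdkn2c (-0.95) were called lower. Smooth muscle markers were higher in DKO (8 of 10 called) and adipocyte markers lower (7 of 10 called), and their part was not tested.

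AKDH against AKO called 0 members by limma (4 at an unadjusted p below 0.05), against 1.29% of genes, with Cdc25c at 0.34 (adjusted p = 0.0895) and Bub1 at 0.65 (adjusted p = 0.228). Without replicate 3 of AKDH it again called 0 (8 at that p), against 1.2% of genes. AHDK against DKO called 0 members (10 at an unadjusted p below 0.05), against 0.366% of genes. There 9 of 36 members lay wholly above DKO, against 5.4% of genes, with Birc5 at 0.27 (limma adjusted p = 0.0604), Ccne1 at 0.32 (adjusted p = 0.179) and Plk1 at 0.74 (adjusted p = 0.255). The adipocyte markers Pck1 (1.70, limma adjusted p = 0.0316), Gpd1 (1.65, adjusted p = 0.0395) and Lpl (1.79, adjusted p = 0.0395) were called higher in AHDK than in DKO. The others measured were higher without being called, and their part in the members' values was not tested. AKDH adds 1 lost copy of the Hoxd genes to AKO, and AHDK 1 lost copy of the Hoxa genes to DKO.

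In AKO caudal epididymis 4 members, all mitotic genes, were called higher than in WT. The mean of the replication members exceeded WT by 0.39 (SE 0.11) and that of the mitotic members by 0.28 (SE 0.05), without overlap in either. Ccnb2 was 0.09, 0.08 and -0.10 in AKO and -0.84, -0.90 and -0.90 in WT, a rise of 0.90 (SE 0.07, limma adjusted p = 0.0124). Plk1, the kinase of mitotic entry, was 0, -0.04 and 0.08 against -0.70, -0.59 and -0.89, a rise of 0.74 (adjusted p = 0.0373). Ect2 was 0, 0.10 and 0.20 against -0.82, -0.62 and -0.57, a rise of 0.77 (adjusted p = 0.0371). In each, the lowest AKO array lay above the highest WT array.

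Kif20a, a kinesin of the central spindle, rose by 0.46 (-0.16, -0.17 and -0.18 against -0.69, -0.62 and -0.59, limma adjusted p = 0.0376). These 4 calls, all higher, compare with 0.782% of genes called and 0.411% called higher. Wholly above WT lay 21 of 36 members, against 13.1% of genes, and 31 of 36 were higher. Among those not called, and picked after their values were seen, were Mcm6 at -0.22, -0.19 and 0.04 against -1.10, -1.32 and -0.55, Mcm5 at -0.04, -0.40 and -0.07 against -0.999, -0.83 and -0.71, and Ccnd1 at -0.70, -0.99 and -0.63 against -1.37, -1.50 and -1.39. Mki67 (-0.04, 95% interval -0.35 to 0.28) and Cdkn1b (-0.08, -0.29 to 0.13) overlapped WT.

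The member mean was -0.41, -0.37 and -0.32 in WT and -0.04, -0.12 and -0.11 in AKO, a difference of 0.27 (SE 0.03). Leaving out single arrays kept it between 0.25 and 0.29 (log2), and 94.2% of its variance lay between the genotypes. The calls were less firm. Without AKO replicate 1, which carried the proximal epididymis genes, 3 members were called (Ccnb2, Ect2 and Plk1), against 1.32% of genes, and without AKO replicate 3 Ccnb2 alone, against 0.0853%. Without AKO replicate 2, WT replicate 2 or WT replicate 3 none was called (0 of 36 by limma, 15 to 18 at an unadjusted p below 0.05), against 0.0853%, 0.191% and 0.13% of genes. Without WT replicate 1, 2 were called, Ccnb2 higher and Kif2c lower, against 0.582%.

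Cell makeup differed strongly between these groups. Sperm and spermatid markers averaged 2.98, 1.78 and 2.05 in WT epididymis and -0.48, 0 and -0.14 in AKO, wholly lower for 12 of 14 genes, with Prm1, Prm2, Odf1, Smcp and Spata18 called. Smooth muscle markers averaged -0.19, -0.66 and -0.83 in WT and -1.74, -1.29 and -1.86 in AKO, wholly lower for 8 of 10, with 2 called. Epithelial markers averaged -0.27 to -0.17 in WT and -0.18 to -0.05 in AKO. The part of these shifts in the mitotic genes' values was not tested. Of 48 other mitotic genes 1 was called, Cenpn (0.92, adjusted p = 0.0422).

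Kif2c, a microtubule-depolymerising kinesin, ran against the other members in epididymis. It was 2.04, 0.60 and 0.76 in WT and -0.07, -0.29 and -0.27 in AKO, a difference of -1.35 (SE 0.37, limma adjusted p = 0.167), the only member wholly below WT, against 9.02% of genes. Its highest array, WT replicate 1, was also the highest for sperm markers. Without that array the difference was -0.89 (adjusted p = 0.0437). The AKO effect on Kif2c was lower in epididymis than in vas deferens by 1.44 (interaction -1.44, SE 0.36, limma adjusted p = 0.0254), where AKO and WT differed by 0.09. It was the 1 member called in that interaction, against 7.22% of genes, and again without replicate 1 of AKO epididymis (-1.51, adjusted p = 0.0344, 6.06% of genes). The call was lost without replicate 2 of WT vas deferens, replicate 1 or 3 of AKO vas deferens or replicate 3 of AKO epididymis (0 of 36 members called by limma, 3 to 5 at an unadjusted p below 0.05).

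In WT, epididymis lay below vas deferens for most members. Ccnd1 was -1.37, -1.50 and -1.39 in epididymis and -0.19, -0.03 and 0.34 in vas deferens, a fall of 1.46 (SE 0.13, limma adjusted p = 5.31e-07). Cdkn1b fell by 0.78 (adjusted p = 0.00024), with both probe sets low. The cyclin that promotes G1 exit and the inhibitor that opposes it were thus both lower.

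Called lower with them were Cdk1 (-0.99), Ccna2 (-1.13), Ccnb2 (-0.85), Plk1 (-0.68), Kif20a (-0.69), Tpx2 (-0.51), Nusap1 (-0.65), Ect2 (-0.54), Prc1 (-0.59), Rrm2 (-0.88) and Mcm5 (-0.93). Kif2c alone was called higher (1.22, SE 0.26, limma adjusted p = 0.00176). The 14 calls compare with 28.1% of genes called, the 13 lower ones with 16.8% called lower, and the 21 members wholly below vas deferens with 24.3% of genes. Without replicate 1 or 2 of WT vas deferens 7 and 8 members were called, and without replicate 1, 2 or 3 of WT epididymis 10, 9 and 9. With quantile normalisation 4 were called. Cell makeup differed between these tissues as well, with most sperm markers called higher in WT epididymis, as given above. Adipocyte markers such as Plin4 (-1.17) and Adipoq (-1.53) were called lower there, while Gpd1 (2.42) was called higher. Kif2c was highest on replicate 1 of WT epididymis, the array highest for sperm markers. The part of makeup in the members' values was not tested. The largest ranges of group means in males, with WT epididymis lowest, were those of Mcm6 (1.81), Ccnd1 (1.74), Mcm5 (1.48) and Ccna2 (1.43).

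Of the pathway genes, 48 other mitotic genes had 16 called lower (33.3%) and 1 higher in WT epididymis, against 16.8% of all genes called lower, led by Spc25 (-1.98), Anln (-1.55), Smc4 (-0.54) and Kif23 (-0.98). Of 29 other replication genes 5 were called lower (17.2%), among them Pola1 (-1.01), Prim1 (-0.75), Tyms (-0.82) and Cdt1 (-0.50). Of 20 G1/S regulators 3 rose, with Ccnd2 at 1.78, and 3 fell, with Cdc25a at -0.56. Of 15 arrest genes Btg1 rose (0.74) and 4 fell (26.7%), with Gadd45a at -1.64 and Gadd45b at -1.70.

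Of the 36 members 14 were called in none of the 20 comparisons: the kinases Aurka, Aurkb and Ttk, the checkpoint proteins Bub1b and Mad2l1, the kinetochore and spindle proteins Cenpe, Cenpf and Kif11, the anaphase activator Cdc20, Mcm2, Mcm4, Pcna, Ccne2 and Mki67. Top2a has a second probe set that hardly moved between groups (WT oviduct less WT uterus -0.14, against -1.80 for the first), so its gene mean understates what the first one shows. The 2 Pcna probe sets list the same transcripts, so they are no independent measurements.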

How the data were processed

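Total RNA of 42 tissues was hybridised to Affymetrix arrays, 3 arrays a group. The authors deposited log2 values per probe set, as far as the values show; how they were summarised and normalised, and the log base, is not given in the sources at hand, and per the deposited values each probe set has a median of 0 over the 21 arrays of each sex. The values therefore give no absolute level, and the number of arrays limits the precision. Of 28856 probe sets 21789 had 1 gene symbol, 1621 several and 5446 none; probe sets of 1 symbol were averaged into 19938 genes. Each comparison was fitted with limma 3.58.1 (lmFit, eBayes, R 4.3.3) to every array of the tissue (for comparisons between tissues, every array of that sex), with Benjamini-Hochberg adjustment over all genes; the threshold for a call was an adjusted p of 0.05. No exact permutation test of 3 against 3 arrays can go below 0.1. The labels call replicates biological without naming the animals, so the p-values cover only how far these samples spread. Named are all called members, up to 4 members with the smallest adjusted p per comparison with WT or between tissues, Cdkn1b in each comparison with WT, the 4 members with the largest range of group means in each sex, and up to 4 called genes of a pathway list per comparison. Other members named for an array's values were picked after these were seen. The members and gene lists were chosen with earlier results of these data known. The scripts were tested on simulated data. Alternatives covered normalisation, filters, array weights, blocks and left-out arrays. Promoters came from RefSeq (GRCm38.p6).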

Additional observations from a re-analysis of the deposited data

Results flagged for a closer look

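The AKO effect on Kif2c, a mitotic kinesin, differed between epididymis and vas deferens. The difference itself was tested in limma as an interaction and came to -1.437 on the log2 scale (SE 0.36, adjusted p = 0.0254 over all genes). In epididymis the 3 AKO arrays lay below the 3 WT arrays, while in vas deferens AKO and WT differed by 0.09. Sperm and spermatid markers were lower in AKO than in WT epididymis for 13 of 14 genes, and their part in the Kif2c value was not tested.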

How the results depend on the processing

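Of 297 alternative counts of called members 227 lay within 1.5 times the main count, counts that stayed at 0 among them. Of 103 alternative mean differences 102 moved by less than the spread between replicates. In uterus that spread exceeded every main difference from WT, so even a change of sign met this rule. The AKO uterus difference, for instance, went from 0.10 to -0.354 without AKO replicate 1. The rule is therefore no measure of firmness there. With quantile normalisation 1 member was called in AKO uterus, 1 between WT oviduct and WT uterus and 4 between WT epididymis and WT vas deferens, and the AKO epididymis mean difference was 0.206. With each probe set on its own 1 was called in AKO uterus. With a filter on spread the counts were 0 in DKO uterus, 1 in AKO vas deferens and 10 between WT oviduct and uterus. With the array median subtracted 8 were called in AKDH vas deferens. With array weights vas deferens had counts of 6 (AKO), 3 (DKO), 16 (AKDH) and 2 (AHDK), and there were 11 in AKO epididymis, 10 for DKO against AKO vas deferens, 1 each for AKDH against AKO and AHDK against DKO vas deferens, 14 between WT oviduct and uterus, and 4 for the AKO effect in epididymis against vas deferens. With both compared groups alone in the fit they were 0 in DKO and 0 in AKDH uterus, 1 in DKO vas deferens and 10 for DKO against AKO vas deferens. With the small RNA covariate, itself higher in every WT than in every mutant uterus, no member was called (0) in uteri of DKO, AKDH or AHDK. Without the 3 uterus arrays far from their group, an alternative chosen after seeing the data, they were 0 in DKO, AKDH and AHDK uterus and 16 between WT oviduct and uterus. Without the libraries that stood apart, chosen with earlier results of these data known, they were 1 in DKO and 9 in AKDH vas deferens, 1 for AHDK against DKO vas deferens, 3 between WT oviduct and uterus and 3 for the AKO effect in epididymis against vas deferens. The labels do not say that same-numbered arrays share an animal, and their deviations from the group means correlated above 0.1 for all 3 numbers in 4 of 42 pairs of groups, namely oviduct of both genotypes, oviduct and uterus of AKO, and vas deferens and epididymis of WT and, separately, of AKO. With the replicate number as a block 0 members were called in DKO uterus (1 at an unadjusted p below 0.05), 0 in AKO epididymis (17 at that p) and 0 in AKO oviduct (1 at that p), 5 between WT oviduct and uterus, 14 between WT epididymis and vas deferens, and 0 and 1 for the AKO effect in oviduct against uterus and in epididymis against vas deferens; the block moved no other count of called members by over 1.5 times. The cause of these changes was not tested.

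Leaving out 1 replicate at a time gave counts of 0 to 1 in DKO and AHDK uterus, 0 to 1 in AKO, 2 to 9 in AKDH and 0 to 2 in AHDK vas deferens, 0 to 3 in AKO epididymis, 1 to 3 for DKO against AKO and 0 to 1 for AHDK against DKO vas deferens, 1 to 11 between WT oviduct and uterus, 7 to 15 between WT epididymis and vas deferens, and 0 to 1 for the AKO effect in epididymis against vas deferens. Mean differences over the members then ran from -0.354 to 0.472 (AKO), 0.136 to 0.672 (DKO), -0.55 to 0.163 (AKDH) and -0.015 to 0.734 (AHDK) in uterus.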
